A study of Homo sapiens with 12 samples.

Results

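The small nucleolar RNA (snoRNA) host genes are long noncoding RNA genes whose introns hold snoRNAs. Their members here were the lncRNA genes with a symbol that starts with SNHG and a number (28 genes) together with GAS5, ZFAS1, EPB41L4A-AS1 and DANCR (4 genes), which gave 32 of the 60675 gene IDs in the deposited table. HT29, an established line of human colorectal adenocarcinoma cells, was kept for 24 h with the vehicle or with a water extract of Aconitum carmichaeli Debeaux (ACD), an herbal medicine. The vehicle was PBS with 2% DMSO. Per the paper, extract in this solvent was diluted into the growth medium, so 2% is the DMSO of the added solution. The extract was given as a low dose (20 µg/mL), a medium dose (100 µg/mL) and a high dose (500 µg/mL). Each of these 4 groups had 3 RNA libraries, and the extract was dissolved in the same solvent as the vehicle. All libraries came from this 1 cell line, and the labels do not say whether the libraries of a group were separate cultures, so the p-values measure the spread between these libraries. Titles and treatment labels name ACD and set the groups used here, although a longer treatment note describes an extract of Poria cocos. The question was whether these translation-linked noncoding RNAs rose or fell with the extract.

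A snoRNA host gene is transcribed and spliced like a messenger RNA gene, and the snoRNA is trimmed out of a removed intron. The snoRNAs with C and D boxes guide the methylation of ribose and those with H and ACA boxes guide the conversion of uridine to pseudouridine, mainly in ribosomal RNA, while the related scaRNAs act on spliceosomal RNAs in Cajal bodies. Many of the spliced host transcripts begin with a run of pyrimidines like that of ribosomal protein mRNAs and carry short open reading frames, so that they are loaded on ribosomes and then removed by nonsense-mediated decay (NMD). GAS5 is named for its accumulation in growth-arrested cells, and blocking translation is known to stabilise it. In the colon, GAS5, SNHG1, ZFAS1 and DANCR are mostly studied in the context of tumours.

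Library totals ranged from 15941255 to 33866644 expected counts (median 23833237). Of the 32 members, 25 had enough counts to be tested among 15374 genes. The other 7 were SNHG14, SNHG18, SNHG25, SNHG26, SNHG27, SNHG28 and SNHG31, which had between 0 and 5 counts in every library, and SNHG18 and SNHG27 had 0 in all 12 libraries. High-dose library 2, which had the lowest total, stood apart. Its log2 differences from its group companions had an SD of 0.502 over 10626 genes, against 0.102 to 0.293 for the other 11 libraries. The results are therefore given with and without this library, a choice made after the data were seen. All 10 colon epithelium markers were detected, with median levels from 1.21 CPM (the counts per library scaled by the TMM method to a common total in edgeR) to 6401 CPM. Among 10 markers of leukocytes, endothelium, fibroblasts, glia and hepatocytes, 7 were under 1 CPM in every library, and COL1A2 was at 0 in every library.

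The first bases of the host transcripts show the feature that links part of this family to ribosomal protein mRNAs. In the RefSeq promoter table of GRCh38.p14, 28 of the 32 members were found by symbol, 22 of them among the tested ones. A start with a C and at least 4 more pyrimidines was found in 7 of the 28 members, against 4.07% of all 35116 promoters in the table. In the 6 of these that were tested (SNHG4, SNHG5, SNHG12, SNHG19, SNHG32 and ZFAS1), the window of 50 bases before and 50 bases after the annotated start is printed so that the run can be seen, with the unbroken run of C and T from that start in capitals. SNHG1 and SNHG3 follow for comparison, since their levels are described most fully.
SNHG4: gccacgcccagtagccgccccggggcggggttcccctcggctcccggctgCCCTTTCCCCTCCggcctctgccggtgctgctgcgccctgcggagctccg
SNHG5: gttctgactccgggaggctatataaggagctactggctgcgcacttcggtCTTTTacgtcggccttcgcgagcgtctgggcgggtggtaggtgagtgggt
SNHG12: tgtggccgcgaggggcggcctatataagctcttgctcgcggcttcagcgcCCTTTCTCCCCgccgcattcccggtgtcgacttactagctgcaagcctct
SNHG19: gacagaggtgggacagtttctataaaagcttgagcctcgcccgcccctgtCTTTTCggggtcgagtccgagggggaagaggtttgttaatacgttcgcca
SNHG32: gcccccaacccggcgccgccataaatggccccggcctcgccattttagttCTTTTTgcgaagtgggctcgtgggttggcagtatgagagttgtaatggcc
ZFAS1: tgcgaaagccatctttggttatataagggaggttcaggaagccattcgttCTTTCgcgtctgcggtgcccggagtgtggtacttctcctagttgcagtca
SNHG1: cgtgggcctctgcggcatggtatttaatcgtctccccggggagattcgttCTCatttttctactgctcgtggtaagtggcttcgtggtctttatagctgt
SNHG3: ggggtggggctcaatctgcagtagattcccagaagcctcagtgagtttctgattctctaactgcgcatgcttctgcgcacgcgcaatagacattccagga
The windows lie at chr5:139274051-139274150 on the plus strand, chr6:85678684-85678783 on the minus strand, chr1:28581824-28581923 on the minus strand, chr16:2155309-2155408 on the minus strand, chr6:31834866-31834965 on the plus strand, chr20:49278592-49278691 on the plus strand, chr11:62855836-62855935 on the minus strand and chr1:28505893-28505992 on the plus strand. The run was 13 bases long in SNHG4 and 11 bases in SNHG12, and it was 6 bases in SNHG19 and SNHG32 and 5 bases in SNHG5 and ZFAS1. SNHG1 began with a run of 3 bases, and the annotated start of SNHG3 was a purine. The start listed for GAS5 was a purine too, but its window (chr1:173868996-173869095 on the minus strand) lies wholly upstream of the counted gene, which ends at 173868882. That letter therefore may not describe the first base of the counted GAS5 transcripts. The match is a description of these letters at the annotated start only. The letters CACGTG, the E-box bound by MYC and related factors and the same on both strands, occurred within 250 bases before and 50 after the start in 2 of the 28 members (SNHG7 and SNHG30), against 7.26% of all promoters.

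None of the 25 tested members was called at the low, medium or high dose or along the dose rank (edgeR's quasi-likelihood test, with an adjusted p under 0.05 over all genes). The share of all tested genes called was 0.124% for the low, 1.01% for the medium and 5.77% for the high dose and 5.74% for the trend, so a count of 0 in 25 is near the background and is not a result about the hosts. The median log2 fold change of the members was −0.15 with the low dose, −0.16 with the medium dose and 0.12 with the high dose, while the median over all genes was between −0.01 and 0.01. The 1790 tested lncRNA genes had medians of −0.09, −0.13 and −0.22. At the high dose the median of the hosts was thus above zero and that of the lncRNAs below it with all libraries, but without high-dose library 2 the medians were −0.21 for the hosts and −0.22 for the lncRNAs. An unadjusted p under 0.05 was found for 1 member at the low dose (SNHG3, against 7.95% of all genes), 1 at the medium dose (SNHG3, 11.7%), 4 at the high dose (SNHG1, SNHG4, SNHG15 and SNHG32, 20.1%) and 3 for the trend (SNHG1, SNHG4 and SNHG15, 20.1%). DESeq2's Wald test on the same libraries called 0 members at the low and medium doses and 1 at the high dose (SNHG1), where it called 8.46% of all genes. In bulk RNA, a lower level in every cell and fewer cells with the RNA cannot be told apart. The median SE of a member's log2 fold change at the high dose was 0.16.

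The summed level of the 25 hosts differed most in a single library. It was 1349, 1181 and 1188 CPM in vehicle libraries 1 to 3, 1139.6, 1067 and 1218 CPM with the low dose, 1100.2, 1126 and 1114 CPM with the medium dose and 1156, 1916 and 1156 CPM with the high dose. High-dose library 2 was far above every other library, and its 2 companions lay below all vehicle libraries. The group means were 1239 ± 95.0 CPM in vehicle, 1142 ± 75.7 CPM with the low dose, 1113 ± 12.7 CPM with the medium dose and 1409 ± 439 CPM with the high dose (SD over 3 libraries). Without library 2 the high-dose mean was 1156 CPM. High-dose library 2 exceeded the mean of its 2 companions in 24 of 25 hosts, with a median ratio of 1.56 (from 0.225 in SNHG22 to 2.82 in SNHG8), whereas the median ratio over all tested genes was 0.995. It was the highest of all 12 libraries in 17 of 25 hosts, against 30.8% of all tested genes. In the vehicle group, library 1 was the highest for 24 of 25 hosts, against 41.6% of all tested genes.

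**Figure D1:**
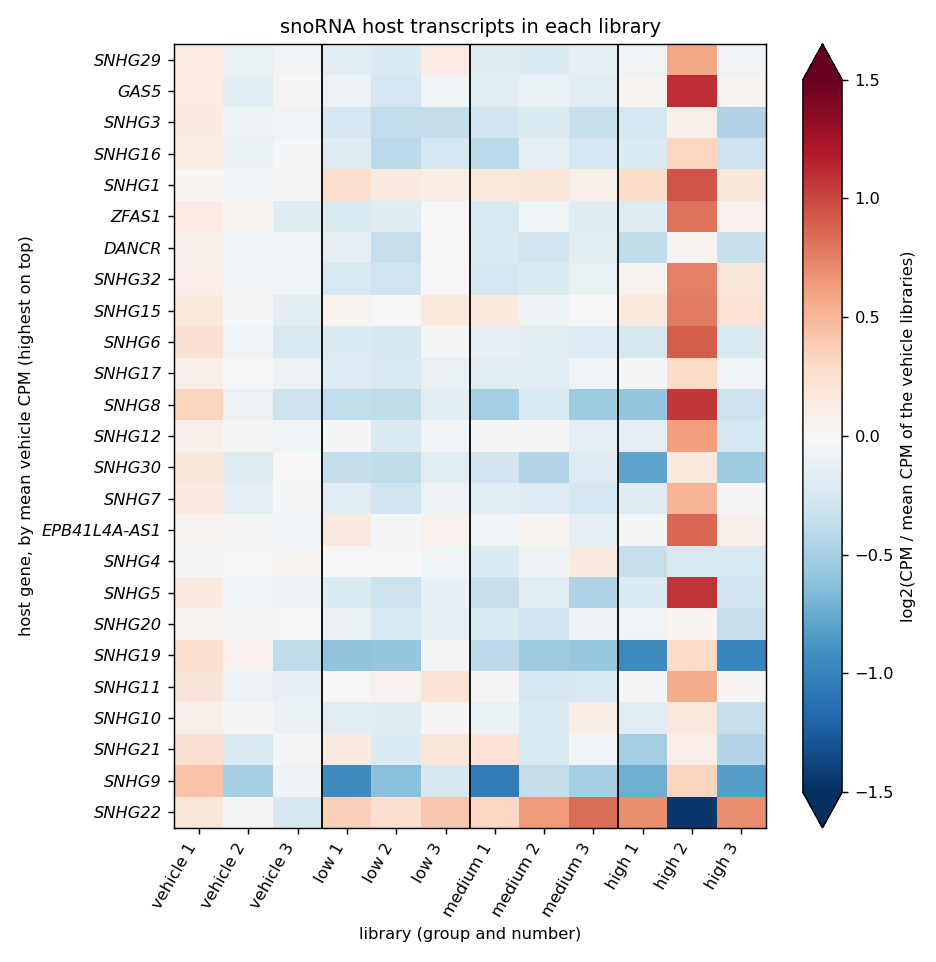
Each row is a tested host gene, ordered by its mean vehicle level, and each column is a library. The colour is the log2 ratio of the library's CPM to the mean of the vehicle libraries, cut at 1.5 in either direction, and high-dose library 2 is red in most rows where its 2 companions are pale or blue.

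Ribosomal protein mRNAs were highest in the same libraries as the hosts. The summed level of the 79 cytosolic ribosomal protein mRNAs was 68765, 55796 and 53391 CPM in vehicle libraries 1 to 3 and 49290.2, 84355 and 52135 CPM in high-dose libraries 1 to 3. At the low dose it was between 49116 and 56399 CPM and at the medium dose between 50069 and 51767 CPM. Vehicle library 1 and high-dose library 2 thus had the highest sums for both groups of transcripts. The 18 NMD factors, which remove many host transcripts, had the opposite order, with 1623, 1714 and 1741 CPM in vehicle and 1820.4, 1506 and 1801 CPM at the high dose, and high-dose library 2 was the lowest of all. The 15 stress genes of ATF4, a factor made when translation is held back, stood at 654, 602 and 603 CPM in vehicle and 1218, 1443 and 1216 CPM at the high dose, and were high in all 3 high-dose libraries. The part of these groups in the host levels was not tested.

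**Figure D2:**
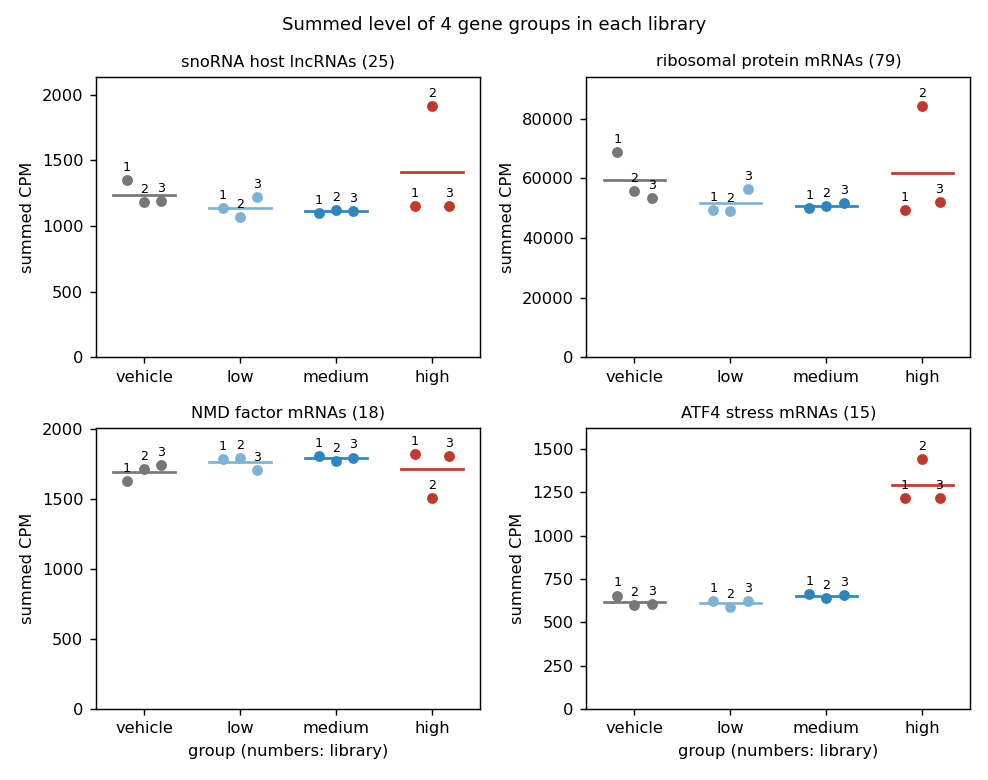
The panels show the summed CPM of the tested hosts, the ribosomal protein mRNAs, the NMD factors and the ATF4 stress mRNAs, with a point per library (numbered) and a line at the group mean. High-dose library 2 stands at 1916 CPM for the hosts and at 84355 CPM for the ribosomal protein mRNAs, while all 3 high-dose libraries are raised for the ATF4 mRNAs.

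With high-dose library 2 left out of the fit, the high dose gave 7 calls among the 25 hosts. SNHG1 rose, and SNHG19, SNHG30, SNHG3, DANCR, SNHG4 and SNHG16 fell. The call of 1 higher member compares with 9.83% of all tested genes and that of 6 lower members with 8.89%. Of the 1919 lncRNA genes tested in this fit, 44 were called higher and 232 lower, so more calls were lower among lncRNAs in general too. SNHG19 and SNHG30 also passed the fold change of 1.5 that defines a DEG. The median log2 fold change of the members was then −0.21, with 7 above and 18 below zero, and their median SE was 0.09. The family's median at the high dose was thus above zero with library 2 and below zero without it. With that library left out, the low-dose comparison gave 0 members higher (0.97% of all genes) and SNHG3 lower (1.06%), and the medium-dose comparison gave 0 members higher (3.62%) and SNHG3 and SNHG16 lower (3.25%). The 3 doses share the vehicle libraries, and the 2 remaining high-dose libraries were taken to vary like the other groups.

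**Figure D3:**
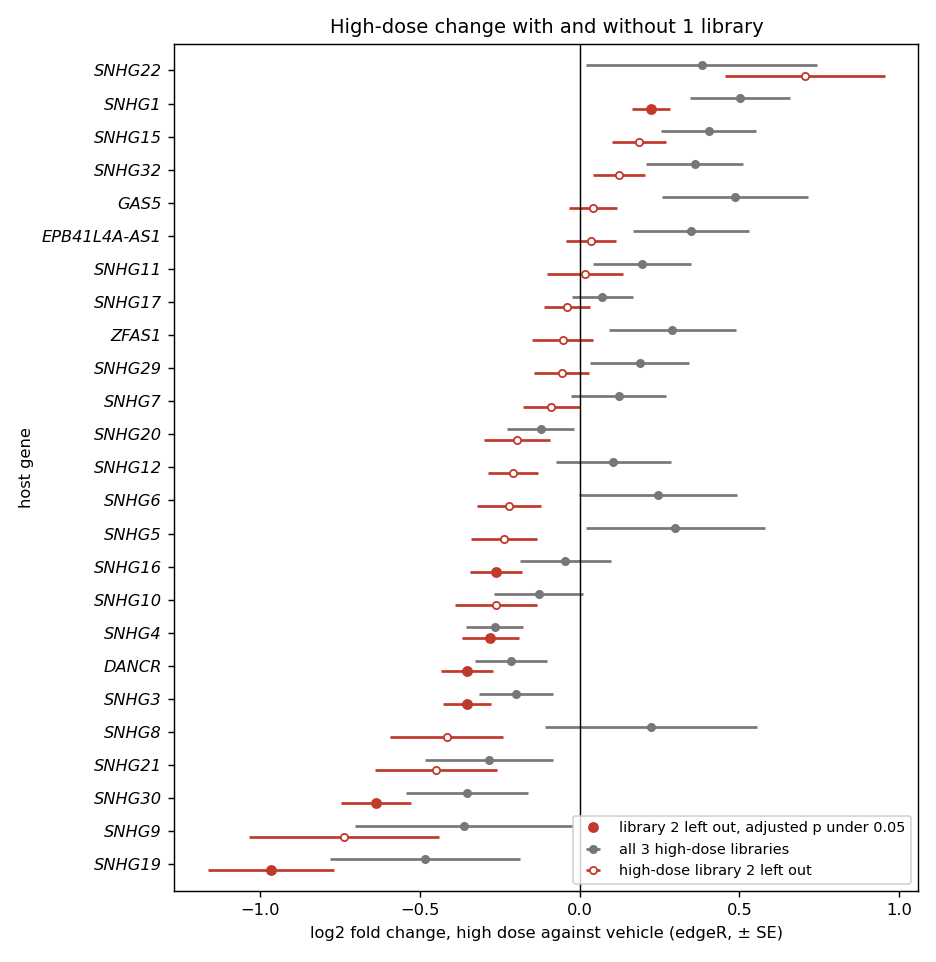
Points are log2 fold changes of the high dose against vehicle from edgeR, with bars of 1 SE, for all 3 high-dose libraries (grey) and with library 2 left out (red, filled where the adjusted p is under 0.05). Leaving out the library shifts 24 of 25 hosts to the left (all but SNHG22), and 7 have filled red points, SNHG1 on the right of zero and the other 6 on the left.

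Among the hosts of C/D box snoRNAs, SNHG1 was the member that stood above vehicle in every treated library. SNHG1 (ENSG00000255717, on chromosome 11 of GRCh38 from 62851978 to 62855953) holds several C/D snoRNAs. Its level was 109, 104 and 108 CPM in vehicle libraries 1 to 3, 128, 117 and 115 CPM with the low dose, 119, 121 and 114 CPM with the medium dose and 129, 206 and 120.3 CPM with the high dose. The treated and vehicle libraries did not overlap at any dose. At the high dose the log2 fold change was 0.50 (SE 0.16, adjusted p = 0.0872) in edgeR's test with all libraries and 0.22 (SE 0.06, adjusted p = 0.0160) without library 2. Without high-dose library 3 it was 0.65 (adjusted p = 0.0360, with 3.47% of all genes called). Its low-dose and medium-dose log2 fold changes were 0.17 and 0.14 and did not pass the test.

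Several C/D hosts stood lower once library 2 was set aside. SNHG19 (ENSG00000260260, on chromosome 16 of GRCh38 from 2154792 to 2155405), the host of SNORD60, measured 12.3, 10.8 and 7.91 CPM in vehicle libraries 1 to 3, 6.801, 6.91 and 10.2 CPM with the low dose, 7.897, 7.15 and 6.96 CPM with the medium dose and 5.31, 12.6 and 5.23 CPM with the high dose. High-dose libraries 1 and 3 were below every other library, and library 2 was above them all. The log2 fold change at the high dose was −0.48 (SE 0.30, adjusted p = 0.408) with all libraries and −0.97 (SE 0.20, adjusted p = 0.00524) in edgeR's test without library 2. SNHG30 (ENSG00000267321, on chromosome 17 of GRCh38 from 35568050 to 35574900), which holds SNORD7, measured 29.3, 23.1 and 26.1 CPM in vehicle libraries 1 to 3, 20.4, 20.1 and 23.3 CPM with the low dose, 21.6, 19.3 and 22.97 CPM with the medium dose and 15.1, 29.02 and 18.02 CPM with the high dose. High-dose libraries 1 and 3 were again the lowest of the 12, and library 2 lay just under vehicle library 1. Its high-dose log2 fold change was −0.35 (SE 0.19, adjusted p = 0.338) and, in edgeR's test without library 2, −0.64 (SE 0.11, adjusted p = 8.53e-04). SNHG16 (ENSG00000163597, on chromosome 17 of GRCh38 from 76557727 to 76670985), which holds the SNORD1 family, measured 118, 103 and 109 CPM in vehicle libraries 1 to 3, 97.3, 83.2 and 91.9 CPM with the low dose, 83.3, 99.1 and 92.5 CPM with the medium dose and 95.1, 137 and 88.2 CPM with the high dose. All low-dose and medium-dose libraries lay below every vehicle library, and at the high dose library 2 lay above them. In edgeR's test without library 2, the SNHG16 log2 fold change was −0.26 (SE 0.07, adjusted p = 0.0424) at the medium dose and −0.26 (SE 0.08, adjusted p = 0.0350) at the high dose, and with all libraries the latter was −0.05 (adjusted p = 0.909).

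The other abundant C/D hosts were high in library 2 of the high dose and near vehicle in its companions. SNHG29 (ENSG00000175061, on chromosome 17 of GRCh38 from 16438767 to 16480249), which holds SNORD49A, SNORD49B and SNORD65, had the highest level of the family, 289, 247 and 257 CPM in vehicle libraries 1 to 3, 236, 229.6 and 289 CPM with the low dose, 233, 229 and 241 CPM with the medium dose and 254, 396 and 253 CPM with the high dose. Its high-dose log2 fold change was 0.19 with all libraries and −0.06 without library 2. GAS5 (ENSG00000234741, on chromosome 1 of GRCh38 from 173858559 to 173868882) measured 128, 106 and 119 CPM in vehicle libraries 1 to 3, 111, 98.3 and 115 CPM with the low dose, 105, 109 and 105 CPM with the medium dose and 121, 254 and 121 CPM with the high dose. High-dose libraries 1 and 3 lay within the range of vehicle, and library 2 was the highest of the 12. The log2 fold change of GAS5 was 0.49 (SE 0.23, adjusted p = 0.261) in edgeR's test with all libraries and 0.04 (SE 0.07, adjusted p = 0.739) without library 2. ZFAS1 (ENSG00000177410, on chromosome 20 of GRCh38 from 49278178 to 49299600), the host of the SNORD12 family, measured 87.95, 82.4 and 71 CPM in vehicle libraries 1 to 3, 69.1, 71 and 80.5 CPM with the low dose, 68.4, 76.9 and 71.2 CPM with the medium dose and 70.7, 142 and 83.8 CPM with the high dose. High-dose library 2 lay far above the vehicle range, library 3 within it and library 1 just under it. Its log2 fold change was 0.29 with all libraries and −0.05 without library 2.

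The remaining C/D hosts were SNHG32, SNHG5 and SNHG6. SNHG32 (ENSG00000204387, on chromosome 6 of GRCh38 from 31834608 to 31839766), which holds SNORD48 and SNORD52, measured 60.8, 54.8 and 54.3 CPM in vehicle libraries 1 to 3, 48.2, 46.02 and 56.2 CPM with the low dose, 47.2, 49.2 and 52.2 CPM with the medium dose and 58.9, 95.8 and 63.9 CPM with the high dose. The medium-dose libraries lay below every vehicle library, and at the high dose libraries 2 and 3 lay above them. Its high-dose log2 fold change was 0.36 (SE 0.15, adjusted p = 0.207) in edgeR's test with all libraries and 0.12 without library 2. SNHG5, the host of SNORD50B, had 12.9 ± 1.07 CPM in vehicle and 16.3 ± 9.400 CPM at the high dose (SD, n = 3), with 27.2 CPM in library 2 against 11.2 and 10.6 CPM in its companions. SNHG6, the host of SNORD87, had 43.9 ± 7.13 CPM in vehicle and 52.4 ± 25.96 CPM at the high dose. Both turned from a positive to a negative high-dose log2 fold change without library 2, from 0.30 to −0.24 in SNHG5 and from 0.24 to −0.22 in SNHG6, and neither passed the test in edgeR with or without the library.

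Of the hosts of H/ACA snoRNAs, SNHG3 showed the lowest unadjusted p at the low and medium doses. SNHG3 (ENSG00000242125, on chromosome 1 of GRCh38 from 28505980 to 28510892) holds SNORA73A and SNORA73B and overlaps RCC1 on the same strand. It measured 127, 109 and 110.2 CPM in vehicle libraries 1 to 3, 96.9, 89.1 and 90.2 CPM with the low dose, 94.1, 99.8 and 91.3 CPM with the medium dose and 96.3, 121 and 84.1 CPM with the high dose. Every low-dose and medium-dose library lay below every vehicle library. With all libraries its log2 fold change was −0.32 (SE 0.12, adjusted p = 0.481) with the low dose, −0.28 (SE 0.12, adjusted p = 0.375) with the medium dose and −0.20 (SE 0.12, adjusted p = 0.377) with the high dose in edgeR's test. Without high-dose library 2 the same test gave −0.32 (SE 0.07, adjusted p = 0.0181), −0.27 (SE 0.07, adjusted p = 0.0199) and −0.35 (SE 0.08, adjusted p = 0.00356), so that SNHG3 was the only host called at all 3 doses in that fit.

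DANCR and SNHG4 were the other H/ACA hosts that fell in the fit without library 2. DANCR (ENSG00000226950, on chromosome 4 of GRCh38 from 52712325 to 52723623), which holds SNORA26 and is known for holding back differentiation in progenitor cells, measured 72.5, 66.6 and 65.6 CPM in vehicle libraries 1 to 3, 61.5, 53.8 and 68.1 CPM with the low dose, 59, 56.3 and 60.8 CPM with the medium dose and 52.3, 70.1 and 54.3 CPM with the high dose. Its medium-dose libraries lay below every vehicle library, and so did high-dose libraries 1 and 3. The high-dose log2 fold change of DANCR was −0.22 (SE 0.11, adjusted p = 0.329) with all libraries and −0.35 (SE 0.08, adjusted p = 0.00615) in edgeR's test without library 2. SNHG4 (ENSG00000281398, on chromosome 5 of GRCh38 from 139274102 to 139284899), which holds SNORA74A and SNORA74D, measured 18.6, 19.03 and 19.3 CPM in vehicle libraries 1 to 3, 19, 18.99 and 18.1 CPM with the low dose, 16.5, 18.1 and 20.8 CPM with the medium dose and 14.9, 16.2 and 16.3 CPM with the high dose. It was the 1 host whose high-dose libraries all lay below every vehicle library, and library 2 was close to its companions (ratio 1.04). The log2 fold change of SNHG4 was −0.27 (SE 0.09, adjusted p = 0.107) in edgeR's test with all libraries, the next after SNHG1 above the threshold, and −0.28 (SE 0.09, adjusted p = 0.0376) without library 2. SNHG4 overlaps MATR3 on the same strand, so part of its counts may belong to the coding gene.

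**Figure D4:**
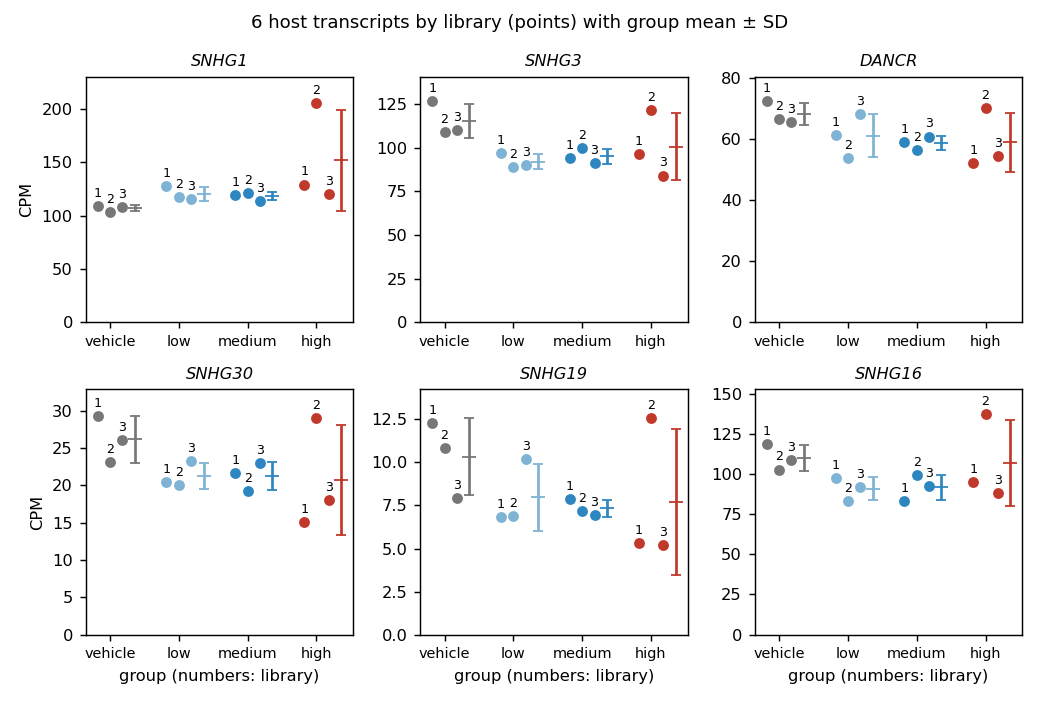
Points are the CPM of SNHG1, SNHG3, DANCR, SNHG30, SNHG19 and SNHG16 in each library (numbered), and the bars beside them are the group mean ± SD (n = 3). SNHG1 is above vehicle in all 9 treated libraries, SNHG3 and SNHG16 are below vehicle at the low and medium doses, and high-dose library 2 is above its companions in all 6 panels.

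The other H/ACA hosts gave no call in edgeR with or without library 2. SNHG15 (ENSG00000232956, on chromosome 7 of GRCh38 from 44983019 to 44986961), the host of SNORA9, measured 53.4, 47.3 and 42.6 CPM in vehicle libraries 1 to 3, 49.6, 47.4 and 52.9 CPM with the low dose, 52.98, 45.3 and 47.6 CPM with the medium dose and 53, 81.97 and 55.2 CPM with the high dose. Its high-dose libraries overlapped vehicle, with library 1 below vehicle library 1. The high-dose log2 fold change was 0.40 (SE 0.15, adjusted p = 0.146) in edgeR's test and 0.19 (SE 0.09, adjusted p = 0.138) without library 2, and it was 0.27 (adjusted p = 0.0137) when vehicle library 1 was left out as well, a fit added after seeing the data. EPB41L4A-AS1, the host of SNORA13, had 21 ± 0.760 CPM in vehicle and 27.1 ± 9.75 CPM at the high dose. SNHG8, the host of SNORA24, had 29.4 ± 6.98 CPM in vehicle and 34.9 ± 22.9 CPM at the high dose, with 61.2 CPM in library 2 against 19.8 and 23.7 CPM in its companions. Its high-dose log2 fold change turned from 0.22 to −0.42 without that library. SNHG17, which holds the SNORA71 family, had 31.3 ± 2.01 CPM in vehicle and 33.03 ± 4.51 CPM at the high dose. SNHG7 had 22.01 ± 2.09 CPM and 24.1 ± 6.42 CPM, SNHG11 had 7.19 ± 0.878 CPM and 8.33 ± 1.99 CPM, and SNHG9 had 1.803 ± 0.580 CPM and 1.45 ± 0.704 CPM in vehicle and at the high dose. SNHG9 rested on 19 to 44 counts per library. Without library 2 the log2 fold changes were 0.04 in EPB41L4A-AS1, −0.04 in SNHG17, −0.09 in SNHG7, 0.02 in SNHG11 and −0.74 in SNHG9.

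SNHG12 holds snoRNAs of both kinds. It had 26.5 ± 1.44 CPM in vehicle and 28.8 ± 10.3 CPM at the high dose, and its log2 fold change was 0.11 with all libraries and −0.21 without library 2. The 4 hosts of scaRNAs had mean vehicle levels of 10.7 CPM or less. SNHG10, SNHG20 and SNHG21 had 5.89 ± 0.369 CPM, 10.7 ± 0.265 CPM and 2.92 ± 0.467 CPM in vehicle, and their high-dose log2 fold changes without library 2 were −0.26, −0.20 and −0.45. SNHG22, the host of SCARNA17, ran against the family. It measured 0.881, 0.788 and 0.659 CPM in vehicle libraries 1 to 3, 0.996, 0.916 and 1.03 CPM with the low dose, 0.964, 1.21 and 1.39 CPM with the medium dose and 1.26, 0.283 and 1.26 CPM with the high dose. The level was above vehicle in all treated libraries but high-dose library 2, which held 4 counts and was the lowest. Its log2 fold change at the high dose was 0.38 (SE 0.36, adjusted p = 0.622) in edgeR's test with all libraries and 0.71 (SE 0.25, adjusted p = 0.0574) without library 2, and along the dose rank without that library, where 17.5% of all genes were called, it passed the test (adjusted p = 0.0331).

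Hosts of both box kinds stood mostly below vehicle at the lower doses. Of the 10 C/D hosts, 9 were below vehicle at the low and 9 at the medium dose, with median log2 fold changes of −0.16 and −0.18. Of the 10 H/ACA hosts, 7 and 9 were below vehicle, with medians of −0.16 and −0.18. At the high dose the median was 0.27 for the C/D hosts and 0.10 for the H/ACA hosts with all libraries, and −0.14 and −0.18 without library 2. The 4 scaRNA hosts had a median of −0.13 and −0.23. The summed level of the C/D hosts in high-dose libraries 1 to 3 was 798, 1382 and 802 CPM and that of the H/ACA hosts 315, 472 and 316 CPM, against 901, 785 and 802 CPM and 398, 349.6 and 341 CPM in vehicle. The scaRNA hosts stayed between 16.4 and 21.5 CPM in all 12 libraries. These are values side by side, and no difference between the kinds was tested. The 6 tested members with a pyrimidine start stood on both sides of zero without library 2, from −0.97 in SNHG19 to 0.12 in SNHG32.

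At the low and medium doses the members leaned below vehicle without a call. In all, 19 of 25 log2 fold changes were below zero at the low dose and 22 at the medium dose, where 50.3% and 52.3% of all tested genes were below zero. Every low-dose library lay above every vehicle library in 2 members (SNHG1 and SNHG22, 11.4% of all genes) and below in 5 (SNHG3, SNHG5, SNHG16, SNHG17 and SNHG20, 9.61%). At the medium dose it was 2 above (SNHG1 and SNHG22, 14.5%) and 10 below (DANCR, SNHG3, SNHG5, SNHG7, SNHG16, SNHG19, SNHG20, SNHG29, SNHG30 and SNHG32, 14.1%). At the high dose it was 1 above (SNHG1, 10.5%) and 1 below (SNHG4, 11.5%) with all libraries, and 2 above (SNHG1 and SNHG22, 25.2%) and 12 below (DANCR, SNHG3, SNHG4, SNHG5, SNHG9, SNHG10, SNHG12, SNHG16, SNHG19, SNHG20, SNHG21 and SNHG30, 25.2%) without library 2. Vehicle library 1 bears on the size of this shift, since without it the median of the members was −0.08 at the low dose and −0.09 at the medium dose. For 3 libraries against 3, the smallest two-sided p an exact permutation test can give is 0.1.

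Each host was also taken as a share of the summed level of the 25 hosts in its library, which takes out a shift common to the family. On this scale, added after seeing the data, high-dose library 2 no longer stood apart for SNHG1, but it did for other hosts. In high-dose libraries 1 to 3 the share was 10.5, 13.3 and 10.4% for GAS5 and 1.71, 3.20 and 2.05% for SNHG8. For SNHG4 it was 1.29, 0.846 and 1.41%, so the shares did not remove what set this library apart. The share of SNHG1 was 8.08, 8.77 and 9.102% in vehicle libraries 1 to 3, 11.2, 11 and 9.48% with the low dose, 10.8, 10.8 and 10.2% with the medium dose and 11.2, 10.7 and 10.4% with the high dose. SNHG1 took more of the family's transcripts in all 9 treated libraries than in any vehicle library. The share of SNHG3 was 9.39, 9.23 and 9.28% in vehicle, 8.51, 8.36 and 7.404% with the low dose, 8.55, 8.87 and 8.19% with the medium dose and 8.33, 6.34 and 7.27% with the high dose, and lay below vehicle in all 9. At the high dose 5 shares were above vehicle in every library (GAS5, EPB41L4A-AS1, SNHG1, SNHG15 and SNHG32) and 7 were below (DANCR, SNHG3, SNHG10, SNHG16, SNHG19, SNHG21 and SNHG30). At the low dose 5 were above (EPB41L4A-AS1, SNHG1, SNHG11, SNHG15 and SNHG22) and 4 below (SNHG3, SNHG5, SNHG16 and SNHG30), and at the medium dose 3 were above (SNHG1, SNHG15 and SNHG22) and 2 below (SNHG3 and SNHG5). A share that lies above or below every vehicle library has an exact permutation p (two-sided) of 0.1 by construction, the smallest that 3 against 3 libraries allow. These shares exist for the 25 hosts only, so no share over all genes can be set beside the counts. The counts are a description and not a result about the hosts. SNHG29 had the largest share throughout, 21.4, 20.9 and 21.6% in vehicle and 22.01, 20.7 and 21.9% at the high dose. Shares of a fixed sum are tied to each other, so a higher share of some hosts lowers that of others.

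Levels between hosts can be set side by side only per transcript length. On the scale of vehicle CPM per kilobase of the canonical GENCODE transcript, SNHG29 was highest at 597, followed by SNHG16 at 221, GAS5 at 153 and SNHG1 at 92. SNHG22 was lowest at 0.480. The isoforms that HT29 cells make may be of other lengths, and the table holds values per gene only.

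The snoRNAs themselves were hardly measured. The annotation used here places 145 snoRNA or scaRNA genes on the same strand within 31 of the 32 hosts, 84 of them in SNHG14. It places none in GAS5, a known C/D host, so the list is not complete. Only 9 had any count in any library, and the highest was 15 counts, for SNORA71B in SNHG17, the only 1 with more than 5. The libraries were made for mRNA, so the host values describe the spliced transcripts and not the snoRNAs. Of the 25 tested hosts, 4 overlap a coding gene on the same strand (SNHG3, SNHG4, SNHG5 and SNHG20) and 15 overlap a coding gene on the opposite strand. The kit marks strand, but the strand setting used in counting is not given in the sources used here, so the counts of these 15 may hold reads of the partner.

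Genes around the hosts were read from lists of known function in the same fit. Of the 79 cytosolic ribosomal protein mRNAs, none was called at any dose by edgeR or DESeq2, and 2, 7 and 0 had an unadjusted p under 0.05 at the low, medium and high doses. Their median log2 fold change was −0.20 with the low dose, −0.22 with the medium dose and 0.08 with the high dose, values close to those of the hosts. Without library 2 the high-dose median was −0.23, with 0 called higher and 9 lower. RPS28 (−0.28 (SE 0.14, adjusted p = 0.276)), RPL4 (0.22 (SE 0.13, adjusted p = 0.378)) and RPS27 (0.30 (SE 0.19, adjusted p = 0.409)) had the smallest p at the high dose in edgeR's test. Another 15 mRNAs known for pyrimidine starts, among them those of translation factors, gave no call by either tool with all libraries. At the high dose 0 of them had an unadjusted p under 0.05. The smallest p were those of EIF3E (0.29 (SE 0.15, adjusted p = 0.323)), NPM1 (0.18 (SE 0.11, adjusted p = 0.418)) and RACK1 (0.18 (SE 0.12, adjusted p = 0.455)) in edgeR's test. The high-dose median of the 15 was 0.13 with all libraries and −0.03 without library 2. Without that library EEF2, the factor of ribosome translocation, rose (log2 fold change 0.22, adjusted p = 0.0223 from edgeR). EEF2 was named after its values were seen. The ribosomal protein mRNAs and the lncRNA hosts had medians on the same side of zero in each of these comparisons.

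The mRNAs of proteins that bind snoRNAs or remove host transcripts gave few calls. Of the 16 snoRNP proteins and assembly factors, 0 were called at any dose by edgeR or DESeq2, and 1 had an unadjusted p under 0.05, at the high dose. NAF1, which assembles H/ACA particles, had the smallest p at the high dose, with 0.36 (SE 0.12, adjusted p = 0.124) in edgeR's test. NOP56, a core protein of C/D particles, had 0.23 (SE 0.11, adjusted p = 0.254) and RUVBL1, an assembly helicase, had 0.21 (SE 0.11, adjusted p = 0.326). Of the 18 NMD factors, 0 were called at any dose by edgeR or DESeq2 with all libraries, and 1, 0 and 1 had an unadjusted p under 0.05 at the low, medium and high doses. SMG8 had 0.16 (SE 0.07, adjusted p = 0.247), UPF2 had −0.10 (SE 0.06, adjusted p = 0.373), UPF3A had −0.18 (SE 0.11, adjusted p = 0.417) and UPF1, the central helicase of NMD, had −0.09 (SE 0.13, adjusted p = 0.761) at the high dose. In the fit without library 2, UPF3A fell (log2 fold change −0.29, adjusted p = 0.0379 from edgeR), as did NHP2 (log2 fold change −0.34, adjusted p = 0.0467), a core H/ACA protein, and ZNHIT3 (log2 fold change −0.21, adjusted p = 0.0303), an assembly factor, both named after their values were seen. Of 22 protein-coding snoRNA hosts, HSPA9, a mitochondrial chaperone, was the only 1 called at the high dose by edgeR with all libraries, where DESeq2 called 5. HSPA9 rose from 366 to 439 CPM (0.26 (SE 0.07, adjusted p = 0.0385) in edgeR's test). PABPC4, a poly(A)-binding protein, had −0.25 (SE 0.07, adjusted p = 0.0559) and WDR43, a factor of ribosome assembly, had 0.21 (SE 0.06, adjusted p = 0.0765). Without library 2, edgeR called 4 of the 22 higher and 1 lower. HSPA9 (log2 fold change 0.24, adjusted p = 0.00682), WDR43 (log2 fold change 0.18, adjusted p = 0.0352), IPO7 (log2 fold change 0.30, adjusted p = 0.00536), an import receptor named after its values were seen, and EEF2 rose, and PABPC4 fell (log2 fold change −0.23, adjusted p = 0.0165).

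The ATF4 stress genes and the MYC network were read in the same fit. Of the 15 ATF4 stress genes, 12 rose and 0 fell at the high dose, with a median log2 fold change of 1.07, and 0 were called at the low or medium dose by edgeR or DESeq2, where 1 at each had an unadjusted p under 0.05. DDIT4 rose from 19.8 to 70.2 CPM, CHAC1 from 2.59 to 20.01 CPM and PSAT1 from 100.0 to 272 CPM, and ATF4 mRNA itself had a log2 fold change of 0.59 (SE 0.08, adjusted p = 0.00146) in edgeR's test. Of the 10 genes of the MYC network, MXD4, a repressor that competes with MYC, fell at the high dose, with −0.75 (SE 0.11, adjusted p = 0.00141) in edgeR's test. MXI1 had 0.31 (SE 0.09, adjusted p = 0.0768), MLXIP had −0.52 (SE 0.16, adjusted p = 0.0895) and MYC had 0.12 (SE 0.07, adjusted p = 0.417). Without library 2, MLXIP fell as well (log2 fold change −0.30, adjusted p = 0.00200 from edgeR). Among 17 tested lncRNAs outside the family, MIR22HG rose (0.60 (SE 0.11, adjusted p = 0.00663)), KCNQ1OT1 fell (−0.78 (SE 0.19, adjusted p = 0.0329)) and UCA1 had −0.29 (SE 0.11, adjusted p = 0.165) at the high dose in edgeR's test. Of the colon epithelium markers CEACAM5 rose (0.70 (SE 0.14, adjusted p = 0.0132)), and CDX2 (0.40 (SE 0.11, adjusted p = 0.0520)) and VIL1 (−0.21 (SE 0.06, adjusted p = 0.0744)) did not pass the test with all libraries. Without library 2, CDX2 rose (log2 fold change 0.42, adjusted p = 0.0187) and VIL1 fell (log2 fold change −0.20, adjusted p = 0.0223) in edgeR's test. CD68 rose from 7.23 to 10.7 CPM (0.57 (SE 0.12, adjusted p = 0.0151) in edgeR's test), while COL1A1 had −0.06 (SE 0.31, adjusted p = 0.955) and PECAM1 had 0.02 (SE 0.25, adjusted p = 0.976). The part of these markers in the host levels was not tested.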

How the data were processed

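RNA of HT29 cells in 4 groups of 3 libraries was sequenced by the authors as paired reads from a directional kit. Per the labels, reads were checked with FastQC 0.11.9, trimmed with Trim Galore 0.6.5, aligned with STAR 2.7.3a and counted with RSEM 1.3.3 on GRCh38. The deposited values are expected counts per gene from RSEM, not normalized, and the authors' strand setting is not given in the sources used here. Here they were rounded to whole numbers, filtered (filterByExpr), scaled (TMM) and fitted jointly for all 12 libraries with edgeR 4.0.16 in R 4.3.3 (quasi-likelihood, robust). The Benjamini–Hochberg adjustment covered 15374 genes in each comparison, and 15674 genes without high-dose library 2. Alternatives were DESeq2 1.42.0, vehicle and 1 dose alone, DESeq2's size factors, other filters, a replicate block and each library left out.

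Gene types, lengths and overlaps came from GENCODE 44, which held 93.2% of the gene IDs, and sequences from RefSeq. The paper names release 84 of the GRCh38 gene annotation for the counting, so the counted gene spans may differ from those given here. The host kinds follow the snoRNA symbols inside each gene, except GAS5, a known C/D host. The members and lists were chosen with earlier results of these data known. The rule named every tested member, the 3 smallest p at the high dose in each list, MYC, UPF1 and ATF4, and the members nearest the threshold. No 2 libraries were duplicates. The steps were tested on simulated counts, with the same spread for all genes and no library that stood apart. The simulation therefore does not bear on the results with and without high-dose library 2.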

Additional observations from a re-analysis of the deposited data

How the results depend on the processing

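With all libraries, the members' calls were 0 at every dose under edgeR with DESeq2's size factors, no filter (25 members), at least 10 counts in every library (24 members), a fold change over 1.5 as well, and the replicate block. Exceptions were DESeq2 at the high dose (1, SNHG1) and edgeR on vehicle and the medium dose alone (1, SNHG3, against 4.18% of all genes). Leaving out 1 library in turn, the members called ranged from 0 to 1 at the low dose, 0 to 2 at the medium dose, 0 to 7 at the high dose and 0 to 6 for the trend, and the median log2 fold change ranged from −0.20 to −0.08, from −0.20 to −0.089 and from −0.21 to 0.22. The upper counts all came without high-dose library 2, where 17.5% of all genes were called for the trend, and without high-dose library 3 SNHG1 alone was called at the high dose (3.47% of all genes). DESeq2 without high-dose library 2 called 2, 3 and 7 members at the low, medium and high doses (2.85%, 7.5% and 16.9% of all genes), and among the latter SNHG8 was called lower (log2 fold change −0.43, adjusted p = 0.0294 from DESeq2) although it stood at 0.22 with all libraries in edgeR. SNHG4 was not called at the high dose in that DESeq2 fit (adjusted p = 0.0577 from DESeq2). Without both high-dose library 2 and vehicle library 1, edgeR called 1, 1 and 7 members and 6 for the trend (1.67%, 5.68%, 17.5% and 15% of all genes), and the median at the medium dose was −0.090. The members called were not the same. SNHG16 was not called at the medium or high dose there (high dose, adjusted p = 0.0827 from edgeR), while SNHG15 was called at the high dose. With plain library totals the mean summed level was 1264 CPM in vehicle in place of 1239 CPM, and 1295 CPM at the high dose in place of 1409 CPM. At the low dose it was 1180 CPM in place of 1142 CPM, and at the medium dose 1137 CPM in place of 1113 CPM. High-dose library 2 stood at 1698 CPM in place of 1916 CPM, so the high-dose sum depended on the scaling as well. Among single members without a call, the sign changed in 3, 7 and 11 of 300 values at the low, medium and high doses when 1 library was left out. These values pool all libraries left out in turn. High-dose library 2 weighed most, since 15 of 25 members were above zero at the high dose with it and 7 without it. The cause of these shifts was not tested beyond the libraries left out.

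The replicate numbers showed no clear pairing of the libraries, though 3 libraries a group, with 1 of them apart, cannot settle this. Of 18 pairs of same-numbered libraries, 5 had a correlation of deviations over 0.1 (range −0.495 to 0.372), and 1 of 12 libraries was closest to its own number. The replicate block gave 0 calls at each dose and for the trend, and changed no call. With 3 libraries a group, 1 of them apart, the median SE of 0.16 at the high dose limits what could be detected, and members with under 50 counts (SNHG9 and SNHG22) were less precise.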
